A study of Mus musculus with 27 samples.

Results

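Receptors that CD8 T cells share with natural killer (NK) cells were followed in 8 genes, chosen by symbol, of the 35275 genes measured: Klrd1, Klrc1, Klrc2, Klrk1, Klre1, Klrg1, Klrb1c and Ncr1. All 8 symbols were found. The first 7 encode C-type lectin-like receptors, whereas NKp46, the product of Ncr1, is an immunoglobulin-like receptor that is used to define NK cells, so the name lectin receptor does not apply to it. The RNA came from CD8 T cells carrying the transgenic P14 receptor, which recognizes the gp33 peptide of LCMV, and was sequenced in 27 libraries, 3 for each of 9 groups.

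WT, lin28Tg and let-7Tg genotypes were compared at 3 stages, and the cells of every group carried P14. WT cells had no further transgene, lin28Tg cells (Lin28bTg in the sample titles) carried a Lin28 transgene whose product keeps let-7 miRNAs from maturing, and let-7Tg cells carried a doxycycline-inducible let-7g transgene in the Col1a1 locus. The promoter of the Lin28 transgene is not given in the sources used here. The P14 lin28Tg and P14 let-7Tg mice are described on a Rag2-/- background, in which T and B cells cannot rearrange receptors of their own but NK cells still form. Mice were of both sexes and 6 to 10 weeks old. Naive cells were not cultured, carry the label None for treatment and are labelled as lymph node T cells, although lymph nodes and spleens are both named as the source. Activated cells received anti-CD3 at 2 μg/ml and anti-CD28 at 5 μg/ml with doxycycline at 2 μg/ml and were taken after 12 h. Cytotoxic T lymphocytes (CTLs) were started with irradiated splenocytes and anti-CD3 at 2 μg/ml, received IL-2 at 100 U/ml and doxycycline at 2 μg/ml, and were taken on day 5. By the study's methods, mice of all genotypes, unless stated otherwise, drank water with doxycycline before an experiment, so the donors of naive cells may have been exposed to it too. No cell sort before RNA extraction is stated.

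These receptors tune killing by NK cells and by effector CD8 T cells. CD94, the product of Klrd1, reaches the surface as a pair with an NKG2 protein: with NKG2A (Klrc1) it forms an inhibitory receptor, with NKG2C (Klrc2) an activating one, and both bind the nonclassical class I molecule Qa-1. NKG2D (Klrk1) pairs with itself and recognizes stress-induced ligands such as Rae-1, H60 and MULT1, and it signals through the adaptor DAP10 (Hcst) or DAP12 (Tyrobp). KLRE1 is an NK-family receptor that pairs with KLRI proteins, KLRG1 binds cadherins and marks terminal effector cells, and NK1.1 (Klrb1c) is a classical surface marker of NK and NKT cells that some activated CD8 T cells acquire.

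All but Ncr1 lie in or near the NK gene complex of chromosome 6, given here on GRCm38 with the whole span of each gene. Klre1 (chr6:129577905-129585827, plus strand), Klrd1 (chr6:129591782-129598775, plus), Klrk1 (chr6:129610323-129623864, minus), Klrc2 (chr6:129647496-129660689, minus) and Klrc1 (chr6:129666015-129678973, minus) follow each other within 101.1 kb. Klrb1c (chr6:128778485-128789215, minus) ends 788.7 kb before Klre1, and Klrg1 (chr6:122270596-122282882, minus) ends 7.3 Mb before it. Ncr1 lies on chromosome 7 (chr7:4337724-4345164, plus). Neighbouring members did not share one pattern over the stages, as the levels below show.

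The genotypes differ in let-7, so the mature miRNA made by the transgene is shown first, with its seed (bases 2 to 8) in capitals. It lies at chr9:106178846-106178867 on the plus strand of GRCm38.p6 in RefSeq.
mmu-let-7g-5p: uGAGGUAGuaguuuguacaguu

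The longest annotated 3′ UTR of each gene was searched. In the 8 members it held no 7-base match to this seed (CTACCTC or TACCTCA). Of the 12770 tested genes with a 3′ UTR, 18.7% had such a match. The shorter 6-base match, TACCTC, occurred in 1 of the 8, Klrk1, against 28.6% of tested genes. Its place, at base 1060 of a UTR of 2463 bases, is shown with the match in capitals.
Klrk1 3′ UTR: ttttgtattttgTACCTCcacgtttcatat

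The 3′ UTRs of the members ran from 335 bases (Klrd1) to 2463 (Klrk1), around the median of 1307 for tested genes. A missing match says only that these letters were not in the longest annotated UTR.

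Since several members moved together between genotypes, their promoters, taken as 250 bases before to 50 after each RefSeq start on GRCm38.p6, were searched on both strands for 3 short motifs of factors in the list of regulators described below. Windows were held for 6 members. The letters bound by RUNX factors (TGTGGT, or ACCACA on the other strand) occurred in all 6, in 8 of their 9 windows, and in 16.8% of 32851 mouse promoters. T-box letters (GGTGTG) occurred in none of the 6 against 19.0% of promoters, and TCF letters (CTTTGA) in 1, Klrk1, against 16.0%. The RUNX and T-box letters share the stretch TGTG and can overlap. The bases around 1 RUNX match per gene are shown 5′ to 3′ along the gene, with the match in capitals.
Klrc1 (from 87 bases before the start, window chr6:129678924-129679223): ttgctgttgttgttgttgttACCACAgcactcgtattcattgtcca
Klrc2 (window chr6:129660547-129660846): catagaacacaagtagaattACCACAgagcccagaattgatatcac
Klrk1 (window chr6:129623815-129624114): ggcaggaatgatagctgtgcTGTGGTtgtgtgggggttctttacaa
Klre1 (window chr6:129577963-129578262): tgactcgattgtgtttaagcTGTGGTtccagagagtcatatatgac
Klrb1c (window chr6:128788592-128788891): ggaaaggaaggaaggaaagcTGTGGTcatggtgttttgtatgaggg
Ncr1 (window chr7:4337465-4337764): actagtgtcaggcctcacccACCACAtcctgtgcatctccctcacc

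A match is a description of the letters and not evidence of a bound site. Klrc1, whose level is followed most closely below, is given with its whole promoter window, read along the minus strand.
Klrc1 promoter: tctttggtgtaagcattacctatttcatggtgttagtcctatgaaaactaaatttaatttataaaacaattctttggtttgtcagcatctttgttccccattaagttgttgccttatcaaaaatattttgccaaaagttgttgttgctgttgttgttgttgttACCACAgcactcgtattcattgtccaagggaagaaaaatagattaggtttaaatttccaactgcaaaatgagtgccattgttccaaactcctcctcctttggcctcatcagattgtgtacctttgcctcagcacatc

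Levels are in FPKM (fragments per kilobase and per total), which takes gene length and library total into account. The counted reads of a library ranged from 13862706 to 23591069, so that a gene of 2 kb with 10 reads had a level of 0.212 to 0.361 FPKM. Depth was ample for 6 members. Klrd1 had 473 to 6437 reads per library, Klrk1 71 to 4142, Klrc1 26 to 1469, Klrb1c 23 to 5078, Klrc2 17 to 515 and Klre1 12 to 438. Klrg1 and Ncr1 had too few reads in part of the design. Klrg1 had 0 to 93 reads and at most 2.79 FPKM, with 3 reads or fewer in every WT and let-7Tg library at 12 h and 1 read at most in let-7Tg CTLs. Ncr1 had up to 913 reads in naive cells and 3 or fewer in every day 5 library.

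Differences between genotypes were tested within each stage, and differences between stages in 1 model of all 27 libraries, with limma on log2 of scaled FPKM plus 0.5. A gene was called when its p, adjusted by Benjamini-Hochberg over all genes tested, was below 0.05. The lin28Tg and let-7Tg comparisons share the WT libraries. Stage, culture and the deposited table go together and cannot be told apart. The 3 samples of a group are described as biological replicates. The p-values rest on the spread within groups, pooled over the 9 libraries of a stage or over all 27.

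CD8 T cell genes (Cd8a, Cd8b1, Cd3d, Cd3e, Cd3g) were abundant in every library, summing to 617 to 3229 FPKM. Marker genes of other cells reached higher sums in naive lin28Tg libraries, and which cells that RNA came from was not tested. A list of NK genes (Klra3, Klra4, Klra7, Klra8, Klra9, Tyrobp, Fcer1g, Fcgr3) summed to 166 to 612 FPKM in them, against 57.7 to 107 in WT and 42.1 to 79.0 in let-7Tg, and all 8 genes were above 3 reads in a library of each group. The 5 Ly49 (Klra) genes of that list alone summed to 16.9 to 37.9 FPKM, against 11.1 to 17.2 and 7.35 to 14.3. Their sums overlapped between lin28Tg and WT, and most of the lin28Tg sum of the whole list came from Tyrobp, Fcer1g and Fcgr3. Over naive lin28Tg replicates 1, 2 and 3 the whole list summed to 166, 612 and 318 FPKM, and the myeloid genes below to 116, 602 and 328. The sum of the whole list is therefore not a measure of NK cell RNA alone. Myeloid genes (Lyz2, Csf1r, Cd14, Adgre1, Itgam) summed to 116 to 602 FPKM against 24.4 to 39.9 and 14.2 to 44.1, and erythroid genes (Hbb-bs, Hbb-bt, Hba-a1, Hba-a2, Alas2) to 494 to 1994 against 153 to 292 and 1.88 to 38.6. Genes of CD4 and NKT cells (Cd4, Foxp3, Zbtb7b, Zbtb16) summed to 22.3 to 82.0 FPKM against 7.04 to 16.0 and 6.20 to 10.5. The NK list and all members but Klrd1 were highest in replicate 2 of the naive lin28Tg libraries, so the members, the counts of the other lists and the genes named from them in naive lin28Tg against WT cells are also given without it. CD8 T cell genes summed to less in naive lin28Tg libraries (2356 to 2655 FPKM) than in WT (2706 to 3229) and let-7Tg (2832 to 3174), without overlap. At 12 h the sums of the lists of other cells were smaller and reached higher in lin28Tg, with overlap for NK, myeloid and erythroid genes. NK genes summed to 16.0 to 42.2 FPKM against 8.36 to 17.0 in WT and 8.26 to 17.9 in let-7Tg. Myeloid genes summed to 4.06 to 7.49 against 0.972 to 5.53 and 0.505 to 1.95, and erythroid genes to 83.3 to 693 against 26.1 to 103 and 0.774 to 4.34. CD4 and NKT genes summed to 3.93 to 4.68 against 1.75 to 2.58 and 0.857 to 3.62. In day 5 CTLs the whole NK list summed to 26.6 to 107 FPKM in lin28Tg against 3.70 to 11.5 in WT and 2.37 to 3.62 in let-7Tg. Its 5 Ly49 genes summed to 0.214 to 0.680 in all 9 libraries, with Klra9 at 0, and myeloid genes to 3.56 at most. The part of RNA from other cells in the genotype differences at 12 h was not tested.

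At 12 h of activation 5, 6 and 4 of the 8 receptor genes were called lower than in naive cells in WT, lin28Tg and let-7Tg, and Klrc1 alone was called higher, in every genotype. In WT cells 6 of 8 members were called between 12 h and naive (1 higher, 5 lower), against 70.9% of all genes tested. In lin28Tg cells 7 were called (1 higher, 6 lower, background 73.5%) and in let-7Tg cells 5 (1 higher, 4 lower, background 69.2%). Between day 5 and naive, 5 members were called in WT (4 higher, 1 lower, background 65.5%), 6 in lin28Tg (3 and 3, background 68.2%) and 5 in let-7Tg (4 higher, 1 lower, background 62.5%). These shares are near those of all genes, so they say nothing particular about the receptors. The lower counts in lin28Tg include Klrg1, which had enough reads for the test only through lin28Tg libraries. The median log2 difference of the members was -1.25, -1.80 and -1.04 at 12 h in WT, lin28Tg and let-7Tg cells and 0.78, 0.45 and 0.13 at day 5, where the medians over all genes lay between -0.06 and -0.01.

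**Figure D1:**
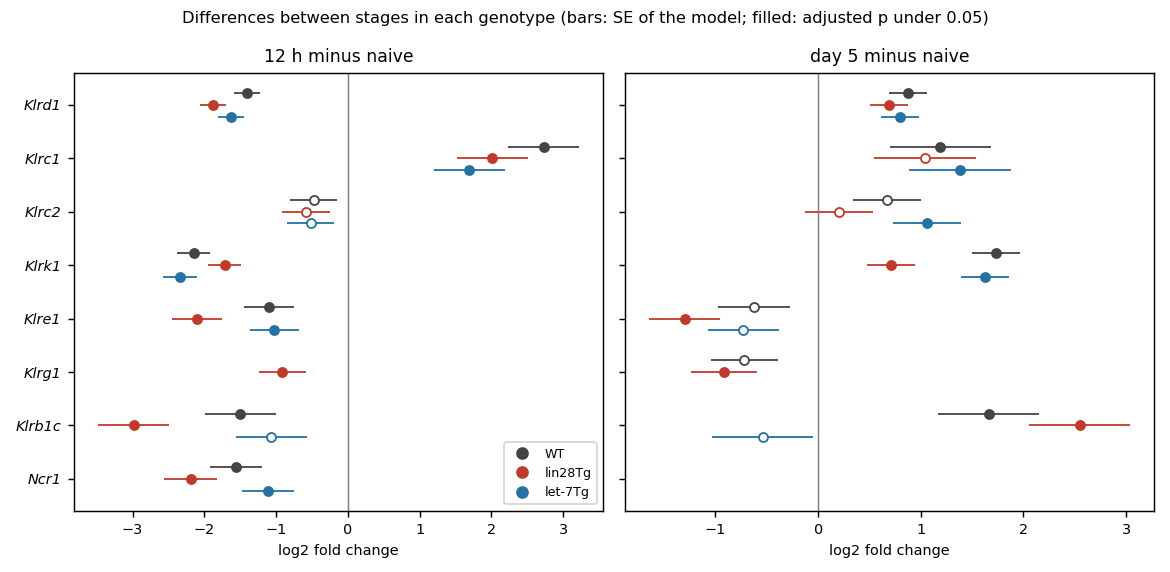
Difference from naive cells of the same genotype (log2 of scaled FPKM plus 0.5) for each member at 12 h and at day 5, with bars for the SE of the fit over 27 libraries. Groups with 3 reads or fewer in every library are left out. Klrc1 lies above 0 at 12 h in all 3 genotypes, at 2.73 in WT, while Klrd1 and Klrk1 lie below 0 at 12 h and above 0 at day 5.

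Between genotypes, the members were higher in lin28Tg cells more often than in the other direction. In naive cells 5 of 8 were called higher in lin28Tg than in WT (Klrc1, Klrc2, Klre1, Klrb1c and Ncr1) and none lower, against 33.6% of all genes called in either direction. The median difference over the 8 was 1.28 on the log2 scale, with -0.02 over all genes. At 12 h 2 of 7 tested were called, both higher (Klrc1 and Klrc2, background 8.39%), and in CTLs 1 of 6 tested, Klrb1c, again higher (background 4.3%). The other members are given below with their values.

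Between let-7Tg and WT cells the calls were few. In naive cells limma called 0 of 8 members (1 at an unadjusted p below 0.05, background 0.813%), at 12 h 1 of 7 (Klrc1, lower, background 3.27%) and in CTLs 0 of 6 (2 at an unadjusted p below 0.05, background 0.944%). The voom weights of limma on the recovered reads also called none in naive cells and in CTLs. Between the transgenic genotypes lin28Tg was higher in 6 of 8 members in naive cells (background 43.7%), in 3 of 7 at 12 h (background 29.9%) and in 4 of 6 in CTLs (background 21.6%), and lower in none.

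**Figure D2:**
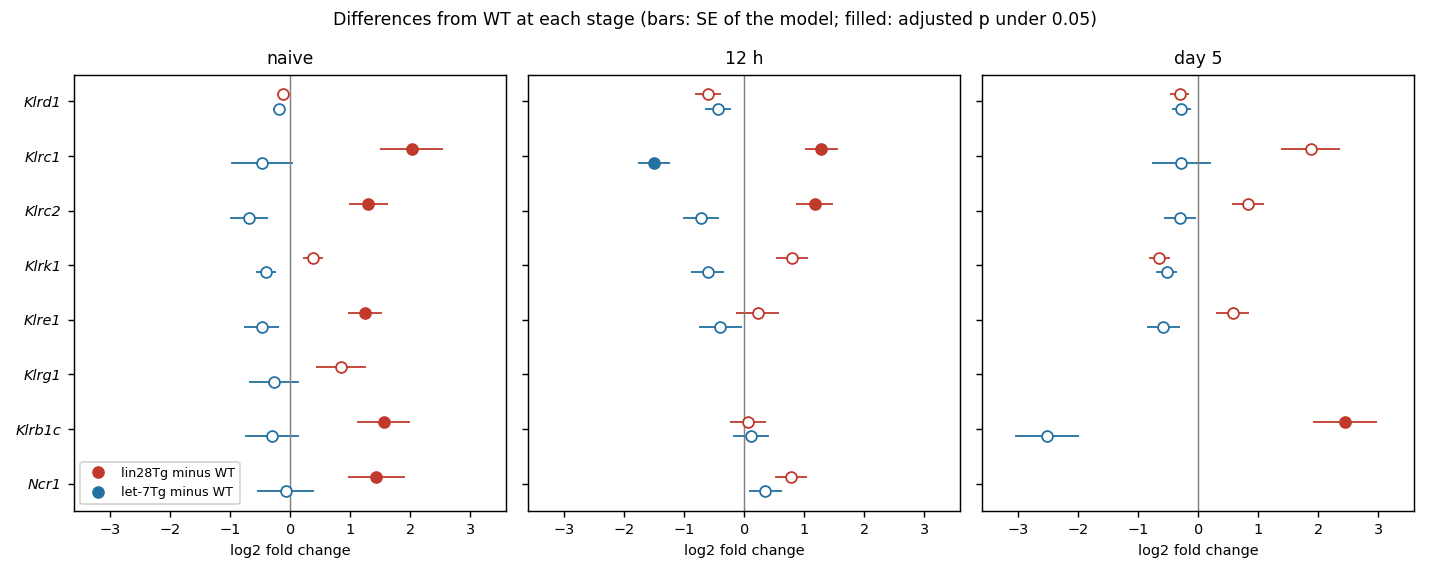
Difference between genotypes within each stage (log2 of scaled FPKM plus 0.5) for each tested member, with bars for the SE and filled symbols where the limma adjusted p is below 0.05. Filled symbols for lin28Tg minus WT lie above 0 at every stage, and Klrb1c in CTLs lies farthest from 0, at 2.44 for lin28Tg minus WT and -2.52, unfilled, for let-7Tg minus WT.

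The naive calls against WT depended on single libraries. Without WT replicate 2 or WT replicate 3, 2 members were called in place of 5, and without lin28Tg replicate 3, 3 were called. Without lin28Tg replicate 2, 2 of the 5 calls remained, Klrc2 (1.12 on the log2 scale, adjusted p = 0.0453) and Klre1 (0.96, adjusted p = 0.0281), while Klrc1 (1.77, adjusted p = 0.0532), Klrb1c (1.11, adjusted p = 0.0740) and Ncr1 (1.00, adjusted p = 0.136) were no longer called. In that fit 23.1% of all genes were called against WT, and 2 of 8 members is near that share. Against let-7Tg 5 of the 6 calls remained, and that of Ncr1 was lost (1.07, adjusted p = 0.0882). In bulk RNA, fewer cells of a type and less RNA per cell cannot be told apart, and the part of the NK cell genes in the naive differences was not tested.

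Klrd1 (CD94) was the most abundant member in every naive and day 5 group, and its level followed the stage. Naive libraries held 255, 236 and 226 FPKM in WT, 217, 212 and 248 in lin28Tg and 246, 212 and 192 in let-7Tg. At 12 h they held 74.0, 88.6 and 71.7 in WT, 59.6, 58.3 and 39.2 in lin28Tg and 82.0, 48.5 and 52.5 in let-7Tg. CTLs held 389, 472 and 378 in WT, 412, 264 and 300 in lin28Tg and 351, 404 and 301 in let-7Tg. The 3 stages did not overlap: every 12 h library was below every naive library, and every CTL library above them all. The WT mean went from 239 ± 14.4 FPKM (SD, n = 3) to 78.1 ± 9.12 and then to 413 ± 51.7. On the log2 scale Klrd1 fell by 1.40 ± 0.19 (SE) at 12 h in WT, by 1.88 ± 0.19 in lin28Tg and by 1.63 ± 0.19 in let-7Tg, and the day 5 level was 0.88 ± 0.19 above naive in WT, 0.69 ± 0.19 in lin28Tg and 0.80 ± 0.19 in let-7Tg, with limma adjusted p of at most 0.00228 for all 6. No genotype comparison of Klrd1 was called at any stage. Within each stage the groups overlapped, except that all lin28Tg libraries at 12 h were below all WT libraries, a difference of -0.61 on the log2 scale with adjusted p = 0.125.

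Klrc1 (NKG2A), the inhibitory partner of CD94, went the other way at 12 h and followed genotype. Naive libraries held 9.62, 3.06 and 2.38 FPKM in WT, 15.4, 27.1 and 16.6 in lin28Tg and 6.56, 1.78 and 2.15 in let-7Tg. All 3 lin28Tg libraries were above all others, and replicate 1 stood highest in WT and in let-7Tg. At 12 h the levels were 22.3, 30.1 and 28.3 FPKM in WT, 77.3, 81.2 and 46.7 in lin28Tg and 13.3, 10.1 and 6.07 in let-7Tg. None of the 3 genotypes overlapped at 12 h, with lin28Tg highest and let-7Tg lowest. CTLs held 6.50, 18.0 and 7.55 FPKM in WT, 26.0, 66.9 and 24.8 in lin28Tg and 5.54, 13.1 and 7.23 in let-7Tg. Replicate 2 was the highest CTL library in each genotype, and every lin28Tg library was above every WT and let-7Tg library.

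Tested within stage, Klrc1 was higher in lin28Tg than in WT by 2.02 ± 0.52 on the log2 scale in naive cells (4.06-fold, limma adjusted p = 0.0151) and by 1.29 ± 0.27 at 12 h (2.44-fold, adjusted p = 0.0191). In let-7Tg cells at 12 h it was lower than in WT by 2.84-fold (-1.51 ± 0.27 on the log2 scale, adjusted p = 0.0270). In CTLs the lin28Tg difference from WT was 1.87 with adjusted p = 0.0688 and was not called. CTL libraries of the same replicate number varied together, and with the replicate number as a block in the fit, the same 1.87 had adjusted p = 0.000637. No label describes same-numbered CTL libraries as matched between genotypes. The block is shown because of a likeness seen in these same data, so its p-value is only a description. Against let-7Tg, lin28Tg was higher by 2.49 ± 0.52 in naive cells, 2.79 ± 0.27 at 12 h (6.93-fold, adjusted p = 0.000122) and 2.16 ± 0.49 in CTLs (adjusted p = 0.0135). The 12 h difference between let-7Tg and WT was no longer called when any of WT replicates 1, 2 and 3 or let-7Tg replicates 2 and 3 was left out (adjusted p up to 0.107), and that between lin28Tg and WT without WT replicate 1 or lin28Tg replicate 1 or 2 (adjusted p up to 0.0918).

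Within each genotype Klrc1 rose at 12 h, by 2.73 ± 0.50 on the log2 scale in WT (6.63-fold, adjusted p = 3.81e-05), 2.01 ± 0.50 in lin28Tg (4.03-fold, adjusted p = 0.000949) and 1.69 ± 0.50 in let-7Tg (3.23-fold, adjusted p = 0.00431). In let-7Tg the naive and 12 h libraries overlapped, through naive replicate 1. The day 5 level was above naive in WT (1.19 ± 0.50, adjusted p = 0.0394) and let-7Tg (1.38 ± 0.50, adjusted p = 0.0192), with overlapping libraries in both, and in lin28Tg the difference was 1.04 with adjusted p = 0.067. The WT call was lost under 6 alternatives (adjusted p up to 0.220) and the let-7Tg call under 4 (up to 0.102).

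The level of Klrc1 relative to Klrd1 therefore changed between stages. Klrc1 RNA per length was 1.05 to 3.78% of Klrd1 in naive WT libraries, 30.1 to 39.5% at 12 h and 1.67 to 3.81% in CTLs. In let-7Tg libraries it was 0.837 to 2.67%, 11.6 to 20.9% and 1.58 to 3.23%. In lin28Tg libraries it was 6.68 to 12.8% in naive cells, 119 to 139% at 12 h and 6.31 to 25.4% in CTLs, and at each stage every lin28Tg library was above every library of the other genotypes. The lin28Tg cells at 12 h were the sole group in which Klrc1 RNA per length exceeded that of Klrd1. The percents rest on the authors' gene lengths, 1042 bases for Klrc1 and 704 for Klrd1. The Klrc1 3′ UTR annotated here has 1186 bases by itself, so which transcript was more numerous is uncertain.

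**Figure D3:**
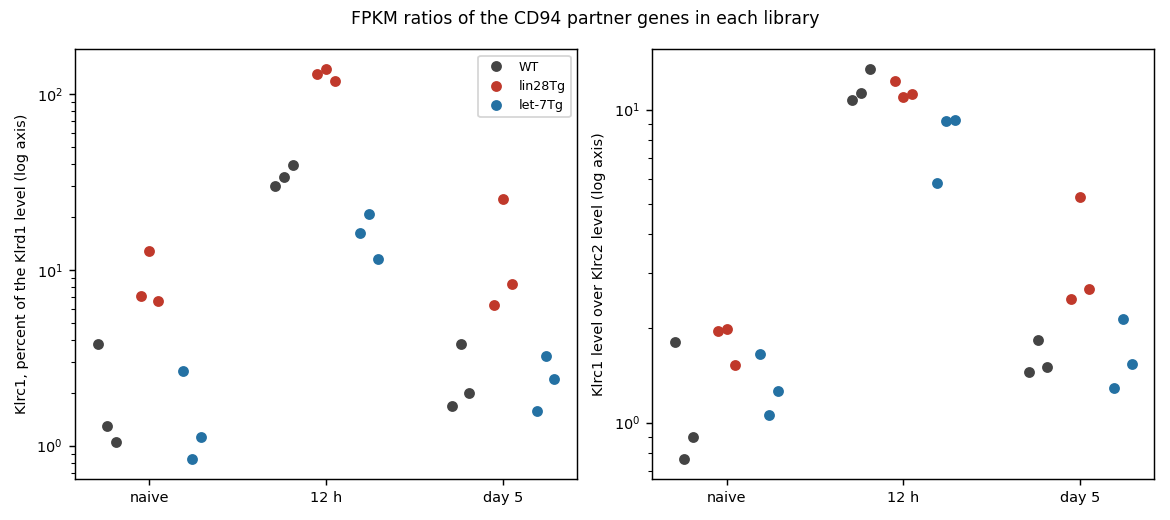
Klrc1 level as a percent of the Klrd1 level (left) and Klrc1 level divided by Klrc2 level (right) in each of the 27 libraries, by group, on log axes. The left panel peaks at 12 h, where lin28Tg libraries lie at 119 to 139%, WT at 30.1 to 39.5% and let-7Tg at 11.6 to 20.9%.

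Klrc2 (NKG2C), the activating partner, moved less with the stage. Naive libraries held 5.32, 4.00 and 2.64 FPKM in WT, 7.84, 13.6 and 10.9 in lin28Tg and 3.97, 1.68 and 1.70 in let-7Tg. At 12 h they held 2.07, 2.67 and 2.10 in WT, 6.27, 7.37 and 4.16 in lin28Tg and 2.27, 1.10 and 0.655 in let-7Tg. CTLs held 4.47, 9.79 and 5.02 in WT, 10.5, 12.7 and 9.26 in lin28Tg and 4.28, 6.09 and 4.71 in let-7Tg. Every lin28Tg library was above every WT and let-7Tg library in naive cells and at 12 h, and in CTLs WT replicate 2 reached into the lin28Tg range. Klrc2 was higher in lin28Tg than in WT by 1.30 ± 0.32 on the log2 scale in naive cells (2.47-fold, adjusted p = 0.0125) and 1.17 ± 0.30 at 12 h (2.25-fold, adjusted p = 0.0433), and in CTLs the difference was 0.83 with adjusted p = 0.127. The 12 h call was lost under 8 alternatives, with adjusted p up to 0.171. No change of Klrc2 at 12 h was called in any genotype, with -0.48, -0.58 and -0.52 in WT, lin28Tg and let-7Tg, and at day 5 it was above naive in let-7Tg (1.06 ± 0.33, adjusted p = 0.00821).

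The balance of Klrc1 to Klrc2 followed the stage. The level of Klrc1 was 0.764 to 2.00 times that of Klrc2 in naive libraries, 5.83 to 13.5 times at 12 h and 1.29 to 5.28 times in CTLs. Klrc1 and Klrc2 are close paralogs, as is Klrc3, so reads that match more than 1 of them may have been dropped or assigned to another, and the ratio is uncertain to that extent. For the ligand of both pairs, H2-T23 (Qa-1), the levels were 213 to 330 FPKM in naive libraries, 133 to 232 at 12 h and 50.7 to 128 in CTLs.

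Klrk1 (NKG2D) followed the stage like Klrd1 but over a wider range. Naive libraries held 38.6, 32.9 and 30.2 FPKM in WT, 40.2, 52.8 and 43.3 in lin28Tg and 34.4, 21.8 and 23.8 in let-7Tg. At 12 h they held 6.92, 6.20 and 5.64 in WT, 9.83, 15.3 and 9.59 in lin28Tg and 5.74, 4.78 and 2.36 in let-7Tg. CTLs held 88.1, 118 and 116 in WT, 58.9, 64.6 and 72.8 in lin28Tg and 63.3, 76.8 and 91.0 in let-7Tg. The stages did not overlap, and the order of lin28Tg and WT turned: lin28Tg libraries were the higher ones in naive cells and at 12 h, and WT libraries the higher ones among CTLs, without overlap at any stage. In WT, Klrk1 fell by 2.15 ± 0.23 on the log2 scale at 12 h (4.43-fold, adjusted p = 2.49e-08) and stood 1.73 ± 0.23 above naive at day 5 (3.33-fold, adjusted p = 9.21e-07). In lin28Tg cells it fell by 1.72 ± 0.23 at 12 h, and the day 5 level was 0.71 ± 0.23 above naive (1.63-fold, adjusted p = 0.010), and in let-7Tg cells it fell by 2.34 ± 0.23 and stood 1.63 ± 0.23 above naive.

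The turn of Klrk1 was tested as an interaction. The lin28Tg minus WT difference was 0.37 in naive cells (adjusted p = 0.110), 0.80 at 12 h (adjusted p = 0.107) and -0.65 in CTLs (adjusted p = 0.0754), none of them called. The change of that difference was called, at -1.46 ± 0.33 between 12 h and day 5 (adjusted p = 0.00824) and -1.03 ± 0.33 between naive and day 5 (adjusted p = 0.0370). The first was called under every alternative run, with adjusted p of 0.0019 to 0.0316, and the second was lost under 9, with adjusted p up to 0.108. Of the 8 members, 2 were called for the change of the lin28Tg difference from 12 h (Klrk1 and Klrb1c, background 6.52%) and 1 from naive (Klrk1, background 15.1%). For let-7Tg minus WT, limma called 0 of 8 from 12 h (1 at an unadjusted p below 0.05, background 1.41%) and 0 of 8 from naive (1 at an unadjusted p below 0.05, background 0.484%), and voom called 0 in both. From 12 h, Klrb1c was called for let-7Tg with the replicate block (-2.63, adjusted p = 0.0459), without WT day 5 replicate 3 (-3.16, adjusted p = 0.0126) and without lin28Tg naive replicate 2 (-2.63, adjusted p = 0.0480). That block joined equal replicate numbers across stages, which no label describes as matched.

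With the replicate block the CTL differences of 4 members were called between lin28Tg and WT in place of 1, against 13.5% of all genes under that fit, and 2 in place of 0 between let-7Tg and WT, against 3.98%. These values rest on a pairing that was seen in the same data and that no label describes. Klrk1 was then lower than in WT in lin28Tg CTLs (-0.65 ± 0.07, adjusted p = 0.00284) and in let-7Tg CTLs (-0.53 ± 0.07, adjusted p = 0.0164). Klrc2 was higher in lin28Tg (0.83 ± 0.15, adjusted p = 0.0143). Klrb1c was higher in lin28Tg (2.44 ± 0.53, adjusted p = 0.0250) and lower in let-7Tg (-2.52 ± 0.53, adjusted p = 0.0438).

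**Figure D4:**
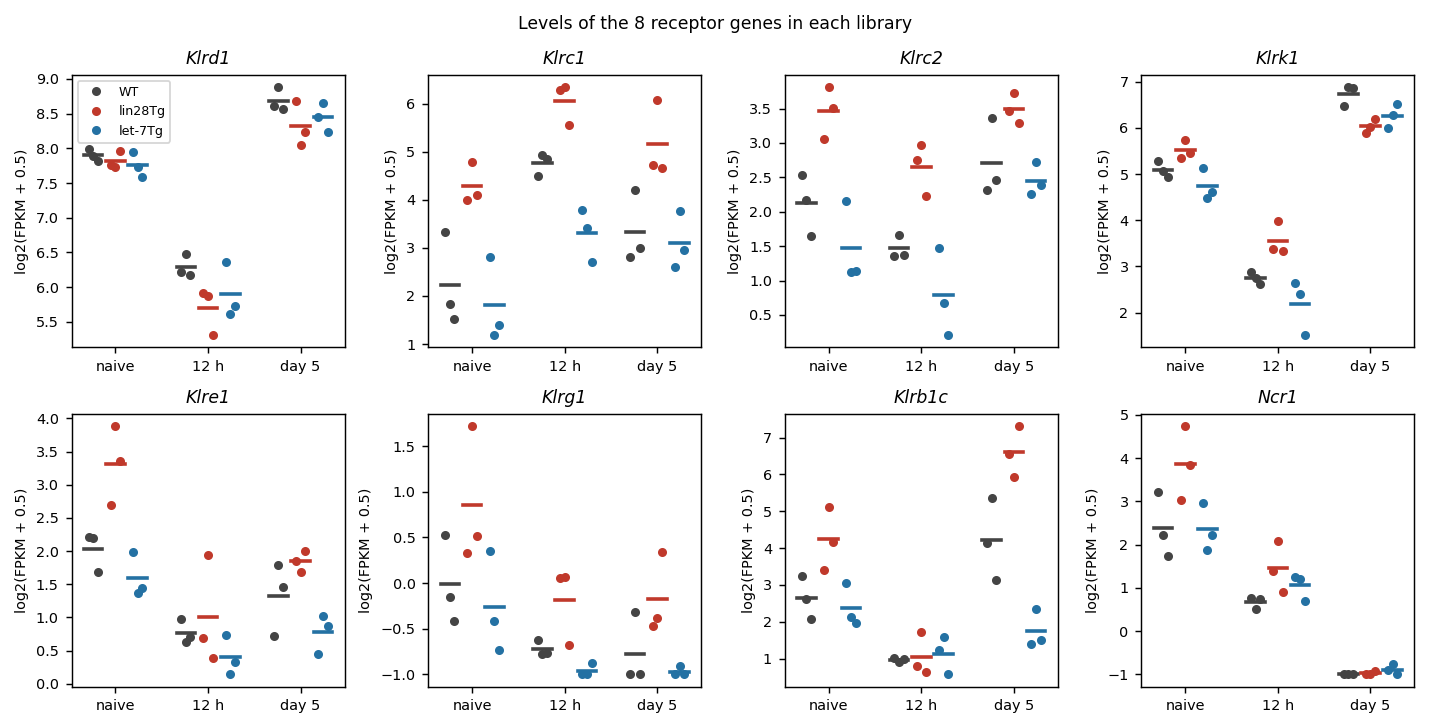
Level of each member in each of the 27 libraries (log2 of FPKM plus 0.5), by stage and genotype, with a bar at the mean of each group. Klrd1 and Klrk1 dip at 12 h and are highest in CTLs, Klrc1 peaks at 12 h, Klrb1c spreads by genotype in CTLs and Ncr1 lies at the floor there.

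Klre1, which encodes a partner of KLRI receptors, was low throughout. Naive libraries held 4.14, 4.08 and 2.72 FPKM in WT, 5.97, 14.2 and 9.81 in lin28Tg and 3.46, 2.08 and 2.21 in let-7Tg. The 12 h libraries lay between 0.604 and 3.35 FPKM and CTL libraries between 0.862 and 3.49. In naive cells all lin28Tg libraries were above all WT and let-7Tg libraries, a difference from WT of 1.25 ± 0.29 on the log2 scale (2.37-fold, adjusted p = 0.00986). At 12 h Klre1 fell by 1.10 ± 0.35 in WT, by 2.10 ± 0.35 in lin28Tg and by 1.02 ± 0.35 in let-7Tg, with adjusted p of 0.00736, 1.07e-05 and 0.0119. The day 5 level was below naive in lin28Tg (-1.30 ± 0.35, adjusted p = 0.00214), and differences of -0.62 in WT and -0.73 in let-7Tg were not called. In CTLs Klre1 was higher in lin28Tg than in let-7Tg (1.15 ± 0.27, 2.23-fold, adjusted p = 0.0160), at 3.11, 2.73 and 3.49 FPKM against 0.862, 1.52 and 1.32.

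Klrg1, a marker of terminal effector cells, did not appear in these CTLs at a level the depth could compare. The reads in naive libraries were 21, 8 and 5 in WT, 19, 93 and 21 in lin28Tg and 17, 5 and 2 in let-7Tg. At 12 h they were 3, 2 and 2, then 12, 13 and 3, and 0, 0 and 1. In CTLs they were 0, 8 and 0 in WT, 6, 8 and 24 in lin28Tg and 0, 1 and 0 in let-7Tg. In naive cells the lin28Tg difference was 0.85 against WT (adjusted p = 0.142) and 1.12 against let-7Tg (adjusted p = 0.0507), not called, with overlapping libraries. The latter was called with a pseudocount of 0.1 (adjusted p = 0.0447), with the replicate block (adjusted p = 0.0473) and without any of WT replicate 1, lin28Tg replicate 1 and let-7Tg replicate 1. Klrg1 was not tested within 12 h or within day 5 because too few libraries reached 10 reads. In the naive fit and the fit of all stages, enough libraries reached 10 reads only through lin28Tg, where the reads were highest. Those fits therefore only describe Klrg1. With no filter on low reads it was called at 12 h between lin28Tg and let-7Tg (0.77, adjusted p = 0.0246). In lin28Tg cells it was called lower than naive at 12 h (-0.91 ± 0.32, adjusted p = 0.0151) and at day 5 (-0.92 ± 0.32, adjusted p = 0.0159), and without naive lin28Tg replicate 2, the library with 93 reads, neither was called (adjusted p = 0.163 and 0.167).

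Klrb1c (NK1.1) gave the widest genotype difference among the members, in CTLs. Naive libraries held 8.89, 5.62 and 3.71 FPKM in WT, 10.2, 34.2 and 17.5 in lin28Tg and 7.83, 3.83 and 3.39 in let-7Tg. The 12 h libraries of all genotypes lay between 0.985 and 2.77 FPKM and overlapped. CTLs held 17.2, 40.6 and 8.35 FPKM in WT, 93.9, 60.8 and 158 in lin28Tg and 2.11, 4.54 and 2.34 in let-7Tg. The 3 genotypes did not overlap in CTLs, with lin28Tg highest and let-7Tg lowest, and the reads behind the lin28Tg values were 2621, 1855 and 5078. The means were 22.1 ± 16.7 FPKM (SD, n = 3) in WT, 104 ± 49.4 in lin28Tg and 3.00 ± 1.34 in let-7Tg. Klrb1c was higher in lin28Tg CTLs than in WT by 5.43-fold (2.44 ± 0.53 on the log2 scale, adjusted p = 0.0384) and than in let-7Tg by 31.1-fold (4.96 ± 0.53, adjusted p = 0.000517). The let-7Tg difference from WT was -2.52 ± 0.53 with adjusted p = 0.0693. The lin28Tg difference from WT kept its direction, at 1.93 to 2.76 on the log2 scale, but leaving out any single CTL library except WT replicate 2 ended the call (adjusted p up to 0.140).

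The stage pattern of Klrb1c also depended on genotype. It fell at 12 h by 1.50 ± 0.49 on the log2 scale in WT (adjusted p = 0.00974) and by 2.99 ± 0.49 in lin28Tg (adjusted p = 1.14e-05), and the difference in let-7Tg was -1.07 with adjusted p = 0.0594. The day 5 level was above naive by 1.66 ± 0.49 in WT (3.17-fold, adjusted p = 0.00533, with overlapping libraries) and by 2.55 ± 0.49 in lin28Tg (5.85-fold, adjusted p = 9.49e-05), and in let-7Tg the difference was -0.54 with adjusted p = 0.353. The WT rise was not called without CTL replicate 2 (adjusted p = 0.0599). The lin28Tg minus WT difference grew from 12 h to day 5 by 2.37 ± 0.70 (adjusted p = 0.0434), a call that was lost under 16 alternatives, with adjusted p up to 0.327.

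Ncr1 (NKp46) parted from Klrb1c in CTLs. Naive libraries held 8.75, 4.17 and 2.82 FPKM in WT, 7.62, 26.2 and 13.7 in lin28Tg and 7.33, 3.18 and 4.15 in let-7Tg. At 12 h they held 1.20, 0.928 and 1.16 in WT, 2.10, 3.75 and 1.38 in lin28Tg and 1.88, 1.82 and 1.13 in let-7Tg. In CTLs Ncr1 had 0, 0 and 0 reads in WT, 0, 0 and 1 in lin28Tg and 1, 3 and 0 in let-7Tg. Against a floor of 3 reads per library, the day 5 level was at least 47.7-fold lower than the naive mean in WT, at least 150.4-fold lower in lin28Tg and at least 47.1-fold lower in let-7Tg. At 12 h Ncr1 fell by 1.55 ± 0.36 on the log2 scale in WT, by 2.19 ± 0.36 in lin28Tg and by 1.11 ± 0.36 in let-7Tg, with adjusted p of 0.000612, 1.19e-05 and 0.00963. In naive cells Ncr1 was 2.71-fold higher in lin28Tg than in WT (1.44 ± 0.47, adjusted p = 0.0417), with overlapping libraries.

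The levels of both NK cell markers were close to each other before day 5. Klrb1c divided by Ncr1 was 0.817 to 1.35 in the 9 naive libraries, with a median of 1.27, and 0.583 to 1.46 in the 9 libraries at 12 h. At day 5 the ratio was defined in the 3 libraries with any Ncr1 read and was 50.7 or higher. The lin28Tg CTLs held 60.8 to 158 FPKM of Klrb1c beside at most 1 read of Ncr1, a sum of at most 0.658 FPKM over the 5 Ly49 genes of the NK list, 8.80 to 43.0 FPKM of Klra5, a Ly49 gene outside that list, and 26.6 to 107 FPKM over the whole NK list. Naive lin28Tg cells held 10.2 to 34.2 FPKM of Klrb1c beside 7.62 to 26.2 of Ncr1, a sum of 16.9 to 37.9 over the 5 Ly49 genes and 166 to 612 over the whole NK list.

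**Figure D5:**
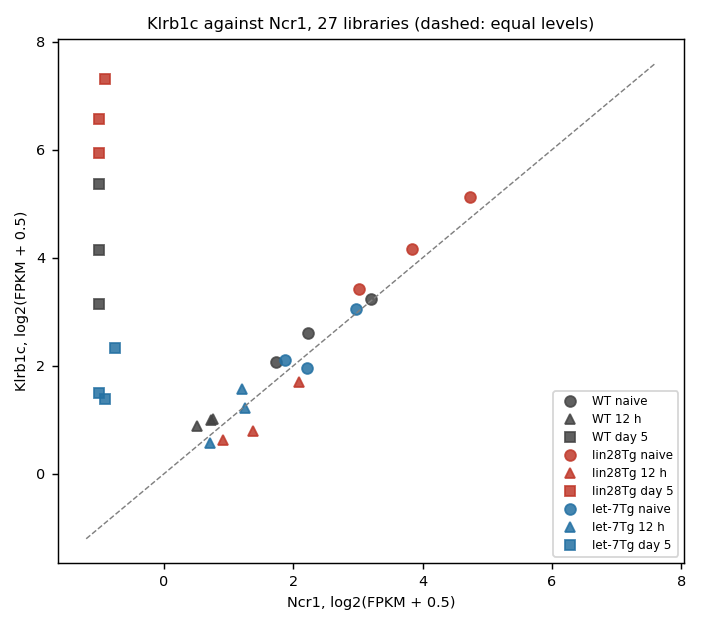
Klrb1c level (vertical axis) against Ncr1 level (horizontal axis) in FPKM for the 27 libraries, with colours for genotype, symbols for stage and a dashed line of equal levels. Naive and 12 h libraries lie along the line, and all 9 day 5 libraries lie far above it at the low end of Ncr1.

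Relatives in the NK gene complex (20 genes listed, 19 found) were called in part in naive cells. Of 15 tested there, 6 were higher and 1 lower in lin28Tg than in WT, where 33.6% of all genes were called. Without naive lin28Tg replicate 2, 3 were higher and 0 lower, where 23.1% of all genes were called. Klrb1b was 4.86-fold higher (adjusted p = 0.00869), Klra2 3.90-fold (adjusted p = 0.00967) and Klri1, whose product pairs with KLRE1, 2.63-fold (adjusted p = 0.00997), and without that library the folds were 3.61, 2.78 and 2.31, all still called. Of 16 tested between stages, 11 were lower and 1 higher at day 5 than in naive WT cells (all genes 65.5%), and 13 lower and 1 higher in lin28Tg (all genes 68.2%). In CTLs 1 of 6 tested was called between lin28Tg and WT (all genes 4.3%), Klra5, a Ly49 gene outside the NK marker list. It was 6.64-fold higher (2.73 ± 0.53 on the log2 scale, adjusted p = 0.0262), at 8.80 to 43.0 FPKM against 1.66 to 2.86 in WT and 0.267 to 1.03 in let-7Tg.

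Adaptors and proximal signaling genes (12 listed, 12 found) include the chains through which the activating receptors signal. The gene of the CD3 zeta chain, Cd247, was higher in lin28Tg than in WT in naive cells (3.05-fold, adjusted p = 5.32e-06), at 12 h (4.62-fold, adjusted p = 3.72e-05) and in CTLs (3.69-fold, adjusted p = 1.03e-05). Hcst (DAP10), the adaptor of NKG2D, was lower in lin28Tg in naive cells (1.51-fold, adjusted p = 0.000753) and at 12 h (1.64-fold, adjusted p = 0.0150). Its level followed the stage as Klrk1 did between naive and 12 h, with 135 to 220 FPKM in naive libraries, 12.4 to 35.4 at 12 h and 70.6 to 95.6 in CTLs. Fcer1g, the Fc receptor gamma chain, was 10.7-fold higher in lin28Tg than in WT CTLs (adjusted p = 0.0145) and made up most of the NK list there, which summed to 26.6 to 107 FPKM against 3.70 to 11.5 in WT and 2.37 to 3.62 in let-7Tg. Tyrobp (DAP12), the other adaptor, stayed between 0.179 and 5.27 FPKM in CTLs. In the whole list 6 genes were higher and 1 lower in naive lin28Tg than in WT cells (all genes 33.6%), 1 and 2 at 12 h (all genes 8.39%), and 2 and 1 in CTLs (all genes 4.3%). Without naive lin28Tg replicate 2 the naive counts were 4 and 1, with Cd247 at 3.15-fold higher and Hcst at 1.50-fold lower, both called.

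Among 11 ligand genes, calls between lin28Tg and WT were 4 higher and 1 lower of 8 tested in naive cells (all genes 33.6%), 1 and 1 of 4 at 12 h (all genes 8.39%), and 0 and 1 of 6 in CTLs (all genes 4.3%). Without naive lin28Tg replicate 2 the naive counts were 2 higher and 0 lower of 7 tested, with Ulbp1 at 1.74-fold and Cdh2 at 2.15-fold, both called. Ulbp1 (MULT1), a ligand of NKG2D, was higher in lin28Tg in naive cells (1.68-fold, adjusted p = 0.00756) and at 12 h (1.90-fold, adjusted p = 0.0498), and it was 5.69-fold higher in WT CTLs than in naive WT cells (adjusted p = 4.54e-09). H60b, another NKG2D ligand, went the other way. It was 1.84-fold lower in naive lin28Tg than WT cells (limma adjusted p = 0.0214), and 1.67-fold lower without replicate 2 (adjusted p = 0.0724, not called). In CTLs it was 2.10-fold lower in lin28Tg than in let-7Tg (adjusted p = 0.0123). Cdh2, a cadherin of the kind that KLRG1 binds, was 2.50-fold higher in naive lin28Tg than WT cells (adjusted p = 0.00149). Of 18 cytokine receptors and transcription factors, 10 were higher and 5 lower in naive lin28Tg than WT cells (10 and 4 without lin28Tg replicate 2, all genes 33.6% and 23.1%), 6 and 2 at 12 h (all genes 8.39%), and 1 and 2 of 17 tested in CTLs (all genes 4.3%), where Tcf7, the gene of TCF-1, was 21.6-fold lower (adjusted p = 0.000944) and Id2 2.58-fold higher (adjusted p = 0.0398). Il2rb, the IL-2 and IL-15 receptor beta chain, was 1.51-fold higher in naive lin28Tg cells (adjusted p = 0.000566, and 1.52-fold without replicate 2) and 1.58-fold at 12 h (adjusted p = 0.0118). Genes with smaller adjusted p were lower in lin28Tg than in WT. These were Bach2 (2.06-fold, limma adjusted p = 7.25e-05) and Tox (1.55-fold, adjusted p = 0.000471) in naive cells. At 12 h they were Id3 (1.56-fold, adjusted p = 0.00518) and Tox (1.73-fold, adjusted p = 0.00800). Runx3, named after its values were seen because its motif was searched, ranged from 185 to 267 FPKM in naive libraries, 52.3 to 132 at 12 h and 226 to 291 in CTLs. In let-7Tg none of these 18 genes was called against WT at any stage.

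Of 8 other receptors shared by NK and CD8 T cells, 4 were higher and 1 lower in naive lin28Tg than WT cells (3 and 0 without lin28Tg replicate 2, all genes 33.6% and 23.1%), 0 were called at 12 h (all genes 8.39%) and 1 was higher in CTLs (all genes 4.3%). Slamf7 was 3.73-fold higher in naive lin28Tg cells (adjusted p = 0.00121, and 3.44-fold without replicate 2) and 1.78-fold in CTLs (adjusted p = 0.0220), and 1.89-fold lower in let-7Tg than in WT CTLs (adjusted p = 0.0379). Cd244a (2B4) was 17.0-fold higher in lin28Tg than in let-7Tg CTLs (adjusted p = 0.000594) and Cd160 3.83-fold (adjusted p = 0.00328).

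The genes whose levels went most like each member over the 27 libraries, by Pearson correlation of log2 values, differed between members. Stage, depth and any other cells in a library are shared by all points. Klrd1 went with Ngly1 (r = 0.965), Pygb and Asrgl1 (both 0.963), and Klrk1 with Vim (0.969), Nrm (0.968) and Glipr2 (0.967). For Klrc1 the nearest were Chst11 (0.905), Cdc34 (0.904) and Txndc17 (0.893), and for Klrc2 Rnf115 (0.930), Efhd2 (0.897) and Galnt1 (0.886). Klrb1c went with Cd244a (0.968), Ccr2 (0.955) and Lat2 (0.943). The nearest genes of Ncr1 were Ctsh (0.977), Cd74 and Mpeg1 (both 0.976), those of Klre1 Wdfy4 (0.892), Themis2 (0.889) and Pld4 (0.886), and those of Klrg1 Gas7 (0.884), Sh2d1b2 (0.870) and Depdc7 (0.869).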

How the data were processed

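RNA was sequenced in 27 libraries (9 groups, 3 each). The authors aligned reads and counted them per gene, with Bowtie2 2.0.6, TopHat2 2.0.9, HTSeq 0.6.1 and DESeq2 named in the submitters' processing notes; build and annotation release are not given in the sources used here. They deposited FPKM per library, without scaling between libraries, and a signal per group, the mean of normalized reads. Their fold changes and p-values were not used. The FPKM values were whole multiples of 1 read (tolerance 0.001 read, all 462839 values above 0), so reads were recovered. The signal served only in that step.

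FPKM values were scaled by trimmed means of log ratios (30% and 5% trimmed), taken as log2(FPKM + 0.5) and tested with limma 3.58.1 in R 4.3.3 (two-sided, intensity trend). A log2 difference on this scale understates the change of low genes. Genes needed the equivalent of 10 reads in 3 libraries and 15 in all, which kept 13277 naive, 12239 at 12 h, 13030 at day 5 and 14453 over all stages. A count model was not used because the unit was FPKM. The scripts were tested on simulated data.

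The members and lists were chosen with earlier results of these data known. All members were named. A gene of another list was named among the 3 smallest adjusted p of its list in a comparison. Levels of H2-T23, Tyrobp and Runx3 were added after values were seen. Likeness took the 3 genes of highest r. In CTLs all 9 pairs of same-numbered libraries deviated together (r = 0.245 to 0.715), so the block is given there. No label describes these CTL libraries as matched between genotypes, and values under the block are descriptions. In fits over all stages the block joined equal numbers across stages, which no label describes as matched. Gene positions and 3′ UTRs are from GENCODE on GRCm38, and miRNA and promoter sequences from RefSeq on GRCm38.p6. Alternatives were the pseudocount, scaling, filter, voom, the block, fits on 6 libraries and leaving out each library. A further marker list is not reported here.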

Additional observations from a re-analysis of the deposited data

Results flagged for a closer look

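Differences between stages in the lin28Tg effect, tested as interactions, were called for 2 members. For Klrk1 the lin28Tg minus WT difference changed by -1.46 on the log2 scale between 12 h and day 5 and by -1.03 between naive and day 5, and the second call was lost under 9 alternatives (adjusted p up to 0.108). For Klrb1c it changed by 2.37 between 12 h and day 5, a call that was lost under 16 alternatives (adjusted p up to 0.327).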

How the results depend on the processing

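The 59 called differences of the members gave 1632 values under the alternatives, of which 1530 kept the call, 102 lost it and 0 changed direction, and 38 of the differences were called under every alternative. Many alternatives left out a library of a group that was not compared. That alters mainly the pooled spread, so the share of kept calls is not a measure of support. The Klrg1 calls, tested only through lin28Tg libraries, are among the 59. Counts of members called in any genotype comparison were 6 in naive cells (5 to 7 with 1 library left out), 3 at 12 h (3 to 3) and 4 at day 5 (1 to 4, with Klrb1c alone called without let-7Tg day 5 replicate 1). Between lin28Tg and WT the counts with 1 library left out were 2 to 6 in naive cells (5 with all libraries), 0 to 3 at 12 h (2) and 0 to 2 at day 5 (1). For the interactions the count was 2 (1 to 3 with 1 library left out), and 1 (Klrk1) with a pseudocount of 0.1, with no scaling between libraries, with no filter on low reads and with voom on the recovered reads. The cause was not tested. With the replicate block the counts were 7 in naive cells, 3 at 12 h, 5 at day 5, 6, 7 and 7 between stages in WT, lin28Tg and let-7Tg, and 2 for the interactions, where Klrb1c was also called for let-7Tg from 12 h. In naive cells, where same-numbered libraries did not all deviate together (r = -0.256 to 0.474), Ncr1 between lin28Tg and WT was not called under the block (adjusted p = 0.0593). Depth limits Klrg1 at all stages and Ncr1 at day 5.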
